A study of Mus musculus with 2 samples.

Results

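The genes described here build, modify, carry or trim heparan sulfate and the other sugars of the glycocalyx, the carbohydrate coat of the cell surface. They were chosen by gene symbol and not by a cut on their values, but with earlier results of these data known. Taken were xylosyltransferases, Ext and Extl polymerases, N-, 2-O-, 3-O- and 6-O-sulfotransferases of heparan sulfate, Sulf endosulfatases, syndecans and glypicans. Hyaluronan synthases and hyaluronidases, Chst sulfotransferases and sialyltransferases were taken too. The choice gave 73 genes on 139 probe sets, of 18193 genes named on the array. Only probe sets with 1 gene symbol were taken. Ndst1, Xylt1, Hs3st5 and Hyal1 were not among the members and were not assessed. Of these 73, 47 were above the signal floor on at least 1 array and 26 were below it on both.

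By the labels, RNA came from flow-sorted lung vascular cells of C57BL/6J mice, old or young, whose left lobe had been resected (pneumonectomy) and whose remaining right lobes were used. Both groups had been operated on, and each was measured on 1 one-colour Affymetrix array. Not given in the sources used here are the exact ages, the interval since surgery, the markers of the sort and how many mice were pooled, if any. The design asks how gene expression in these cells differs with age after pneumonectomy.

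Heparan sulfate is a chain of alternating sugars that is started by xylose on a core protein, lengthened by the exostosin polymerases, and then sulfated in patches. On endothelium, the pattern of sulfate groups is known to govern the binding of growth factors, chemokines, antithrombin and lipoprotein lipase. Hyaluronan, chondroitin sulfate and chains ending in sialic acid make up most of the rest of the endothelial coat, and the sulfated and sialylated glycans also form ligands of the selectins.

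With 1 array per group there was no replicate check and no test was possible. Differences are therefore given by size, as MAS5 signal in arbitrary units after scaling both arrays to each other, and as log2 ratios of old minus young. The floor of 73.7 signal units is the higher of the arrays' medians over all probe sets, below which values have no order. Where a value was under the floor, the fold was taken to the floor itself and is thus a lower bound, written as "at least". Signals and ratios "in old cells" and "in young cells" are those of the array so labelled. Signals of different genes come from different probes and are not compared with each other. In RNA of a bulk sort, fewer cells of a type and less RNA per cell cannot be told apart.

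Glycocalyx genes differed between the arrays in both directions. Among the 47 members over the floor, 16 (34.0%) were 2-fold or more higher in old cells, where 16.0% of all 12105 genes over the floor were. On the young array 10 members (21.3%) were 2-fold or more higher, against 11.3% of all genes, while 17 members over the floor in both samples were within 2-fold. The other 4 members (Has1, Gpc2, Gpc6 and St6galnac1) were over the floor on 1 array alone with bounds under 2-fold, which do not place them on either side. In all, 8 members were over the floor in old cells alone and 3 in young cells alone, and these could lie only toward the array where they were high. With bounds taken as values, the median log2 ratio of the members was 0.41, against 0.03 over all genes, and the median size of the ratio regardless of sign was 1.17 against 0.52. Restricted to genes over the floor in both samples, 11 of 36 members were higher in old cells (30.6%, against 11.7% of all genes) and 8 in young cells (22.2%, against 10.6%). In 6 of the 7 groups by role, members lay on opposite sides, or in 5 of 7 if Sulf2 is read from its probe set of the other direction. The glypican Gpc1, the 3-O-sulfotransferase Hs3st3b1 and Chst7 were among those on the old side, and the syndecan Sdc1, the 3-O-sulfotransferase Hs3st1 and Chst1 among those on the young side.

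**Figure D1:**
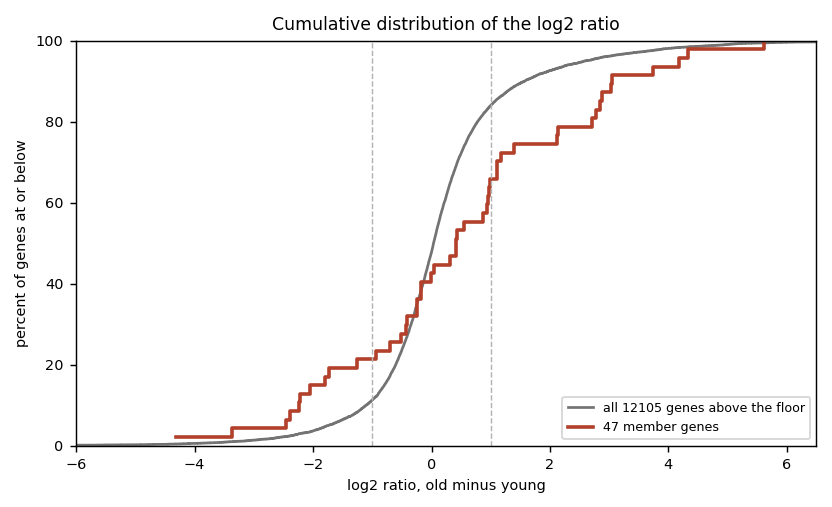
Cumulative percent of genes (vertical axis) at or below a log2 ratio of old minus young signal (horizontal axis), for all 12105 genes over the floor on at least 1 array (grey) and the 47 glycocalyx members (red). Dashed lines mark 2-fold; the members' curve is the flatter of the curves, with 10 members at or beyond the left line and 16 at or beyond the right.

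Marker genes of several cell types also differed between the arrays. For the counts that follow, the shares over all genes were 16.0% higher in old cells and 11.3% in young cells. Of 10 pan-endothelial markers, 4 were 2-fold or more higher in old cells and 1 in young cells, with summed signals of 116874 and 70373. Liver sinusoidal endothelial markers were higher in old cells for 8 of 8 genes (summed signal 179692 against 2830), hepatocyte markers for 6 of 6 (14255 against 409), leukocyte markers for 7 of 8 (14235 against 1798) and macrophage markers for 7 of 8 (16906 against 550). Fibroblast markers were higher in old cells for 7 of 8 genes (22966 against 289), pericyte and smooth muscle markers for 6 of 8 (24280 against 416) and mesothelial markers for 6 of 6 (12305 against 139). Lymphatic endothelial markers were higher in young cells for 5 of 7 genes, with summed signals of 35086 in old cells and 64662 in young cells. Nts had 27.2, under the floor, in old cells and 10414 in young cells, and Prox1 60.6, also under it, and 6885. Mmrn1 had 74.6 and 10039, Reln 107 and 4023, and Pdpn 1880 and 6918. Lyve1 (14901 and 16120) and Flt4 (18035 and 10262) were within 2-fold and held most of the old sum. Of 8 lung capillary markers, Foxf1 and Plvap were over the floor in both samples and within 2-fold. Tmem100 (3.05 in old cells and 80.3 in young cells) and Aplnr (33.1 and 116) were over it in young cells alone, and Scn7a (77 and 24.6) in old cells alone, with bounds under 2-fold. Tbx3, Car4 and Fibin were under the floor in both samples. Among 10 lung epithelial markers 3 were higher in old cells and 1 in young cells (3645 against 561), and Sftpc, Sftpa1, Scgb1a1 and Foxj1 were under the floor in both. Krt18, with 2605 in old cells and 18.2, under the floor, in young cells, held most of that old sum. The liver genes included Clec4g, with 41144 in old cells and 792 in young cells, and Alb, with 8899.5 and 20.5. Whether the labelled tissue is right for the old array therefore could not be settled from the files. Nor could it be settled which vascular cells the young array holds, with lymphatic genes high and several lung capillary markers under or near the floor. Both doubts bear on every ratio given here. These marker levels run alongside every old-side and young-side result below, and their part in those results was not tested.

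Promoter sequences are shown for the 3-O-sulfotransferase genes on opposite sides and for the neighbouring genes that lay on the same side, so that members with large differences can be seen at the sequence level. These genes were picked after their values were seen. Each sequence is the 250 bases before the annotated start, 5′ to 3′ on the gene's strand, from RefSeq on build GRCm38.p6. Capitals mark CACCC or its reverse complement GGGTG, the core letters bound by Kruppel-like factors, of which some are induced in endothelium by blood flow.
Hs3st3b1 (chr11:63922285-63922534, minus strand): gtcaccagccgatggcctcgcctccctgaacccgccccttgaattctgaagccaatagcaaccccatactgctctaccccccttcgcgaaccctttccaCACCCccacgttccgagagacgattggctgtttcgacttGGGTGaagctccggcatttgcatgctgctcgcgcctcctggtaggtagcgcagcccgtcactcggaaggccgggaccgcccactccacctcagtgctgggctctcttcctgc
Hs3st1 (chr5:39644632-39644881, minus strand): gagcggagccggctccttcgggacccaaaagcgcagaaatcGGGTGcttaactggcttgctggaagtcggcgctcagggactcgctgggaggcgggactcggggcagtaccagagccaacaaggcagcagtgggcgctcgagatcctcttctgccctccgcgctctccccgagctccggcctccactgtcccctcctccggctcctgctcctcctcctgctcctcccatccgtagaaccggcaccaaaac
Gpc4 (chrX:52164924-52165173, minus strand): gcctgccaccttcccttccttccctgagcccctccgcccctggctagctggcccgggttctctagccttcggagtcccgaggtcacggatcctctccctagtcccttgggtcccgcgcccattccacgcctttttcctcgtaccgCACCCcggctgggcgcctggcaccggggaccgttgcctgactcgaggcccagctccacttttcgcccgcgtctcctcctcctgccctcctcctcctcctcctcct
Gpc3 (chrX:52613975-52614224, minus strand): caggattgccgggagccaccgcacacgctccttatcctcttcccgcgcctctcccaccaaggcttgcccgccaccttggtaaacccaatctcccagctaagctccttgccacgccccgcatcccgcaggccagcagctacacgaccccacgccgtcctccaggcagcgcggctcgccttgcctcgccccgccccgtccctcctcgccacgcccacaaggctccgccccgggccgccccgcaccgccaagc
St6galnac4 (chr2:32586828-32587077, plus strand): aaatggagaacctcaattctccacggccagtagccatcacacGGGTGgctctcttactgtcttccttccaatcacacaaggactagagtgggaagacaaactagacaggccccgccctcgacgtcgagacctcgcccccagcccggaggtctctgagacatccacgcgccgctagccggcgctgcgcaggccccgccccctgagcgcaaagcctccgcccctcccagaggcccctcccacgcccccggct
St6galnac6 (chr2:32599459-32599708, plus strand): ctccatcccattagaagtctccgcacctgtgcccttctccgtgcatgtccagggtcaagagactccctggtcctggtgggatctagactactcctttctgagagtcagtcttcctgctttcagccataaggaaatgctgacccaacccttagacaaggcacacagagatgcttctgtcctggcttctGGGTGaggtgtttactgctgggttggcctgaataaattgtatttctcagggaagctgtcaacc

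RefSeq promoters were matched by symbol for 54 of the 73 members, with 62 start sites. CACCC, on either strand, was in 46 of these 62 windows (74.2%), against 52.0% of all 32851 promoters. The members' windows also had more G and C letters, with a median of 63.4% against 52.4%. CACCC was in 12 of 17 windows of old-side members (70.6%) and 7 of 9 of young-side members (77.8%). In the sequences shown, Hs3st3b1 has it at 2 places, Hs3st1, Gpc4, St6galnac4 and St6galnac6 at 1 place each, and Gpc3 at none. The letters TGANTCA of AP-1 were in 2 of the 62 windows (3.23%, against 6.75% of all promoters), GCGTGGGCG of Egr in 1 (1.61% against 0.536%), CACGTG of the E-box in 5 (8.06% against 6.02%) and TATAAA in 3 (4.84% against 12.4%). None of these other motifs was in the promoters shown. No matches overlapped in the windows shown, and a match is only a match of letters.

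Chain initiation and polymerisation genes mostly lay within 2-fold, with 1 of 5 measured members on each side. Xylt2, which adds the first xylose to the core protein, had a signal of 166 in old cells and 72.5, just under the floor, in young cells, at least 2.25-fold higher in old cells. Extl3, which adds the first N-acetylglucosamine and so commits a chain to heparan sulfate, had 334 in old cells and 1574 in young cells, 4.71-fold higher in young cells. The copolymerase genes Ext1 and Ext2, which together lengthen the chain, showed little difference: Ext1 had 1458 in old cells and 1465 in young cells, a log2 ratio of -0.01. Ext2 had 1919 and 1417, a log2 ratio of 0.44. Extl2, which acts on the linkage region, had 714 and 957, a log2 ratio of -0.42 that its second probe set nearly matched at -0.36. Extl1 was under the floor in both samples.

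Of the 7 measured sulfotransferases that pattern heparan sulfate, 2 were on the old side and 1 on the young side. The shares were 28.6% and 14.3%, against 16.0% and 11.3% of all genes. Hs3st3b1, which adds the rare 3-O-sulfate group, had a signal of 3598 in old cells and 2.51, far under the floor, in young cells, so that it was at least 48.8-fold higher in old cells. Its 2 other measured probe sets were on the same side with log2 ratios of at least 1.21 and 1.45, bounds well under that of the first. The mean over its probe sets was a log2 ratio of at least 2.76, against at least 5.61 from the brightest. Hs3st3a1, a close copy in the sulfotransferase domain and its near neighbour on chromosome 11, was under the floor in both samples.

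Hs3st1, the 3-O-sulfotransferase known for making the antithrombin-binding site, went the other way. Its signal was 97.1, near the floor, in old cells and 1003 in young cells, 10.3-fold higher in young cells, from 1 probe set. With a floor of 489 signal units its log2 ratio was a bound of -1.04. Hs3st2 had 97.6 and 116, both near the floor, a log2 ratio of -0.25, and Hs3st4 and Hs3st6 were under the floor in both samples. Of 6 genes of this family among the members, then, 1 lay on each side, 1 was within 2-fold and 3 were not measurable.

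Sulfotransferases at the other positions differed less. Hs6st1, a 6-O-sulfotransferase, had 738 in old cells and 343 in young cells, 2.15-fold higher in old cells, close to the 2-fold limit. Its relative Hs6st2 had 1575 and 1262, a log2 ratio of 0.32, with a second probe set at 0.30. Hs2st1, the 2-O-sulfotransferase, had 1195 and 1943, a log2 ratio of -0.70, and its 3 measured probe sets ran from -0.70 to -0.13. Ndst2, which replaces acetyl with sulfate on nitrogen and so opens the way for the other sulfations, had 521 and 620, a log2 ratio of -0.25. Hs6st3, Ndst3 and Ndst4 were under the floor in both samples. As Ndst1 was not among the members, Ndst2 was the only N-sulfotransferase gene with a ratio.

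The endosulfatases, which remove 6-O-sulfate from finished chains outside the cell, lay on opposite sides by their brightest probe sets. Sulf1 had a signal of 607 in old cells and 24.9, under the floor, in young cells, at least 8.24-fold higher in old cells, and a second probe set gave at least 2.29 in log2 ratio. Sulf2 had 1365 in old cells and 5629 in young cells, 4.12-fold higher in young cells. The probe sets of Sulf2 did not share a direction. A second one also lay on the young side, with 556 and 6207 (log2 ratio -3.48), while the last had 2541 in old cells and 428 in young cells (2.57). That last probe set is the only one of the 3 not of the shared-sequence kind, whose probes can match several transcripts. For the second one, an _a_at set, these are transcripts of the same gene. For the brightest, an _x_at set, they can be of other genes. The direction of Sulf2 therefore rests on which probe set is read.

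**Figure D2:**
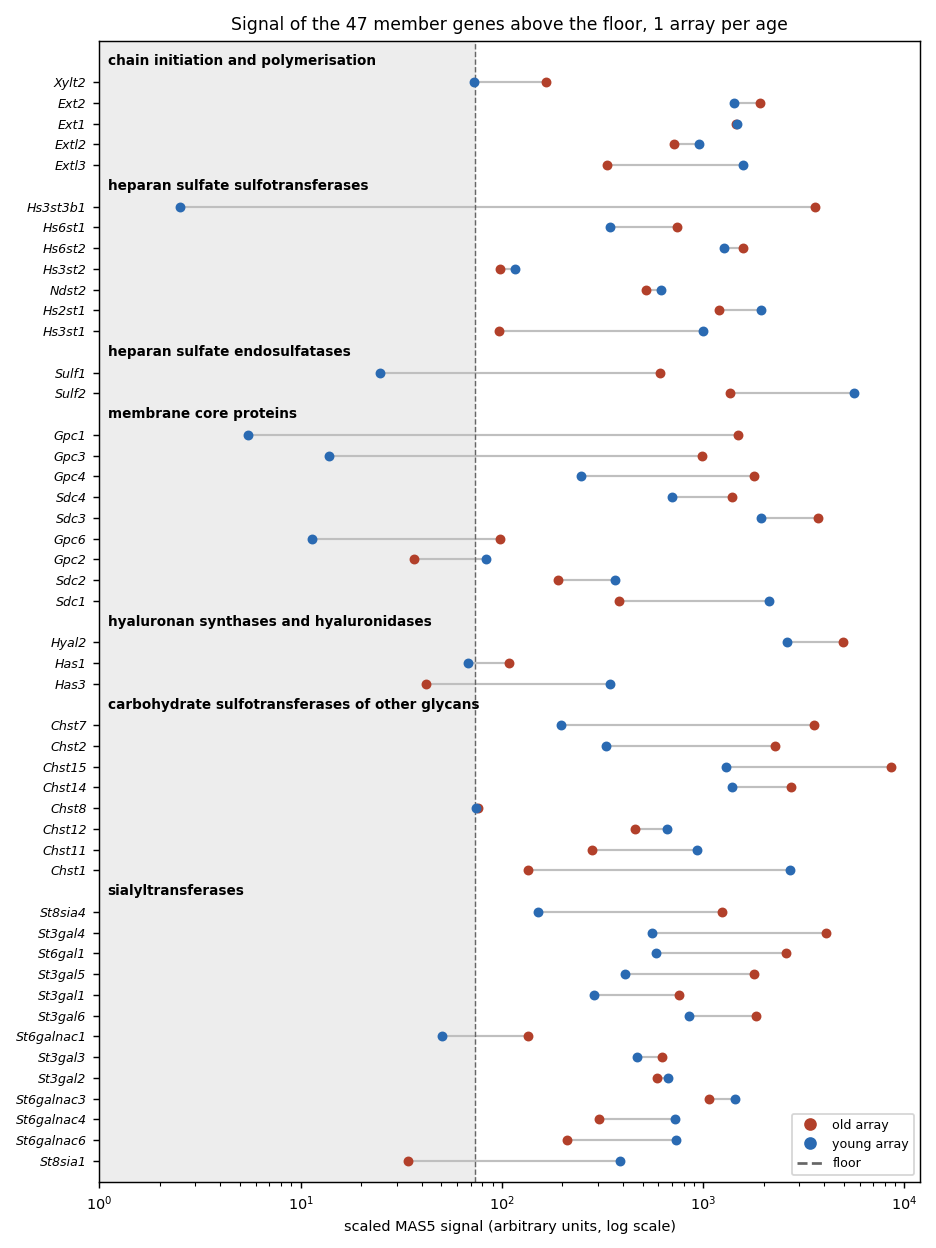
Scaled MAS5 signal (horizontal axis, log scale) of the 47 members over the floor on at least 1 array, for old cells (red) and young cells (blue), grouped by role and ordered by log2 ratio within a role. Points in the grey area lie under the floor of 73.7 and have no order; Hs3st3b1 and Gpc1 lie at 3598 and 1481 in old cells and in the grey area in young cells, while Ext1 lies at 1458 and 1465.

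Among membrane core proteins, the glypicans Gpc1, Gpc3 and Gpc4 were on the old side and the syndecan Sdc1 on the young side. Glypicans are held to the membrane by a lipid anchor and carry heparan sulfate close to the cell surface. Gpc1 had a signal of 1481 in old cells and 5.46, under the floor, in young cells, at least 20.1-fold higher in old cells. Gpc3 had 990 and 13.9, also under the floor in young cells, at least 13.4-fold. Gpc4 was over the floor in both, with 1781 and 248, 7.19-fold higher in old cells, and its probe sets gave log2 ratios of 2.85 and at least 2.90.

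Gpc3 and Gpc4 are direct neighbours on the X chromosome, and both lay on the old side, while Hs6st2, with 2 protein-coding genes between it and Gpc4, was within 2-fold. Gpc6 had 98 in old cells and 11.4, under the floor, in young cells, a log2 ratio of at least 0.41. Gpc2 was over the floor in young cells alone, with 36.7 and 83 (log2 ratio -0.17 against the floor), and Gpc5 was under the floor in both. Gpc4 was thus the 1 glypican over the floor in both samples, and Gpc1, Gpc3 and Gpc6 were measured through the old array alone.

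Syndecans cross the membrane, and their shed outer parts are a common measure of glycocalyx damage. Sdc1 had 383 in old cells and 2114 in young cells, 5.52-fold higher in young cells, and its 4 probe sets all lay on that side, from -2.55 to -1.22 in log2 ratio. Sdc2 leaned the same way with 189 and 363 (log2 ratio -0.94), but its probe sets ran from -1.47 to 0.39, and it passed 2-fold on the deposited scaling (-1.07). Sdc3 and Sdc4 lay just under 2-fold on the old side. Sdc3 had 3714 and 1928 (log2 ratio 0.95, probe sets from 0.51 to 1.42), and Sdc4, a syndecan of focal adhesions, had 1385 and 700.2 (0.98, with a second probe set at 1.54). The mean over probe sets put Sdc4 past 2-fold (1.26).

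Hyaluronan genes were few over the floor, with 3 of 8 measured. Has3, a hyaluronan synthase, had 41.8, under the floor, in old cells and 344 in young cells, at least 4.66-fold higher in young cells. Has1 had 108 and 67.8, a log2 ratio of at least 0.55, and Has2 was under the floor in both samples. Hyal2, a hyaluronidase anchored at the cell surface, had 4950 and 2600.2, a log2 ratio of 0.93, just under 2-fold. Hyal3, Hyal4, Hyal5 and Hyal6 were under the floor in both samples.

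The Chst genes, which add sulfate to chondroitin, dermatan, keratan and selectin-ligand glycans, had large differences on both sides. Chst7, a 6-O-sulfotransferase of chondroitin, had 3553 in old cells and 196 in young cells, 18.1-fold higher in old cells. Chst2, which sulfates N-acetylglucosamine in selectin ligands, had 2265 and 329, 6.89-fold, with a second probe set at 1.27 or more in log2 ratio. Chst15, which adds a second sulfate to chondroitin, had 8531 and 1299, 6.57-fold higher in old cells, and its other probe set gave 1.87 in log2 ratio.

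Chst1, which sulfates galactose in keratan sulfate, lay far to the young side, with 136 in old cells and 2711 in young cells, 20-fold. Chst11, a 4-O-sulfotransferase of chondroitin, had 281 and 931, 3.32-fold higher in young cells, with a second probe set, over the floor in young cells alone, at -0.66 or below in log2 ratio. Chst12, with the same activity, leaned that way but was within 2-fold (461 and 659, log2 ratio -0.52). Chst14, which sulfates dermatan, had 2745 and 1397, a log2 ratio of 0.97, and Chst8 lay at the floor with 76 and 74.1. Of 8 measured Chst genes, 3 were on the old side and 2 on the young side, and Chst3, Chst4, Chst5, Chst9, Chst10 and Chst13 were under the floor in both.

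Sialyltransferases cap glycans with sialic acid, and 6 of 13 measured genes were 2-fold or more higher in old cells and 3 in young cells. The shares were 46.2% and 23.1%, against 16.0% and 11.3% of all genes. The St3gal genes, which attach it by an alpha-2,3 bond, were on the old side for 4 of 6 members and on the young side for 0. St3gal4, which serves selectin ligands, had 4089 in old cells and 554 in young cells, 7.38-fold. St3gal5, which makes the ganglioside GM3, had 1784 and 411, 4.34-fold, with a second probe set at 3.10 in log2 ratio. St3gal1, which caps core O-glycans, had 755 and 288, 2.62-fold.

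St3gal6 was close to the limit with 1836 and 851, 2.16-fold, and its 4 measured probe sets ran from 0.44 to 1.11 in log2 ratio. St3gal2 (589 and 667, log2 ratio -0.18) and St3gal3 (622 and 470, 0.41) were within 2-fold, and the probe sets of each had opposite signs. St6gal1, which adds alpha-2,6-linked sialic acid to N-glycans, had 2568 and 584, 4.4-fold higher in old cells, while its second probe set, over the floor in old cells alone, gave at least 0.33. St6gal2 was under the floor in both.

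The St6galnac genes, which act on O-glycans and gangliosides, had no member at 2-fold on the old side. St6galnac6 had 212 in old cells and 737 in young cells, 3.48-fold higher in young cells. St6galnac4 had 304 and 725, 2.38-fold, with probe sets at -1.25 and -1.60 in log2 ratio. These 2 genes are direct neighbours on chromosome 2. St6galnac3 had 1073 and 1436 and was within 2-fold (log2 ratio -0.42), and St6galnac1 had 135 and 50.7, under the floor in young cells, a log2 ratio of at least 0.88.

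In the St8sia genes, which add sialic acid to sialic acid, the 2 measured members lay on opposite sides. St8sia4, a polysialic acid synthase, had 1241 in old cells and 151 in young cells, 8.21-fold higher in old cells, with a second probe set at 0.21 or more. St8sia1, which makes the ganglioside GD3, had 34, under the floor, in old cells and 388 in young cells, at least 5.26-fold higher in young cells. Its second probe set, also over the floor in young cells alone, gave a log2 ratio of -0.12 against the floor. St6galnac2, St6galnac5, St8sia2, St8sia3, St8sia5 and St8sia6 were under the floor in both samples.

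**Figure D3:**
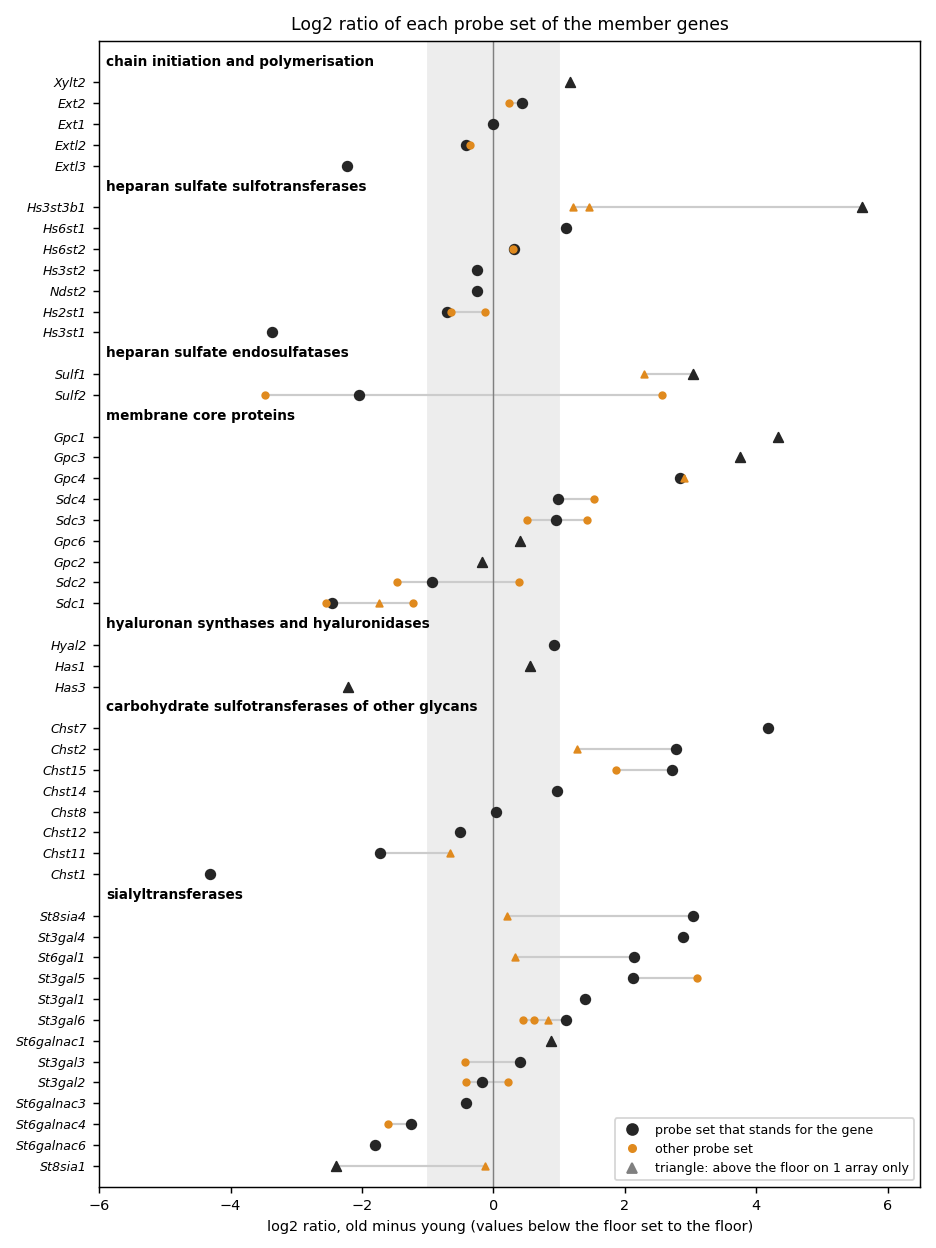
Log2 ratio of old minus young signal (horizontal axis) for every probe set over the floor of the 47 measured members, grouped as by role; black points stand for the gene, orange points are its other probe sets, and triangles were over the floor on 1 array alone. The grey band marks less than 2-fold; the 3 probe sets of Sulf2 span -3.48 to 2.57, while the 4 of Sdc1 all lie at -1.22 or below.

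Repeated measurements existed within an array as several probe sets of a gene. Of 23 members with 2 or more probe sets over the floor, 19 had the same sign in all. Sulf2, Sdc2, St3gal2 and St3gal3 did not. Of the 14 among them at 2-fold or more, 13 had the same sign. Of these, only Chst15, Sdc1, St3gal5, St3gal6 and St6galnac4 had 2 or more probe sets over the floor in both samples. The rest agreed through bounds, some near 0 (-0.12 for St8sia1, 0.21 for St8sia4). A further 12 members at 2-fold or more rested on 1 probe set. This agreement describes the probes and not the mice.

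Other genes of the same pathways were taken from lists written by function, with earlier results of these data known. Of the 67 measured, 20 were 2-fold or more higher in old cells (29.9%, against 16.0% of all genes) and 5 were so in young cells (7.46%, against 11.3%). Their median log2 ratio was 0.26. Most of the old-side genes were core proteins and hyaluronan-binding proteins, while the common supply and breakdown enzymes mostly lay within 2-fold.

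Heparanase, the enzyme that cuts heparan sulfate chains, was on the old side: Hpse had 4132 in old cells and 198 in young cells, 20.9-fold higher in old cells. Of the 12 measured genes of that list it was the one on the old side (8.33%, against 16.0% of all genes). Arsb, a lysosomal sulfatase of chondroitin and dermatan sulfate, was the one on the young side with 537 and 2980 (5.55-fold), and the lysosomal genes Glb1 and Galns had log2 ratios of -0.76 and -0.70.

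Of 14 genes that supply sulfate donor and sugar nucleotides, 4 were 2-fold or more higher in old cells and 0 in young cells. With both sides together this is 28.6% of the list, close to the 27.3% of all genes. Papss2, which makes the sulfate donor PAPS, had 526 and 16.2, under the floor in young cells, at least 7.14-fold. Slc35b3, which carries PAPS into the Golgi, had 4001 and 1150 (3.48-fold), and Uap1, which makes UDP-N-acetylglucosamine, 1511 and 602 (2.51-fold). Slc26a2, a sulfate transporter, had 1031 and 503 (2.05-fold), and its probe sets ran from -0.05 to 1.03 in log2 ratio. Papss1, the other PAPS synthase gene, had 1679 and 1527, a log2 ratio of 0.14.

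The linker enzymes and the epimerase Glce were all within 2-fold among the 5 measured, from -0.69 for B4galt7 and -0.42 for Fam20b to 0.33 for B3gat3 and Glce. Pxylp1 was under the floor in both samples. Chondroitin and dermatan chain synthesis had 3 of 8 measured genes on the old side and 1 on the young side. These are 37.5% and 12.5%, against 16.0% and 11.3% of all genes. Dse, which turns chondroitin into dermatan, had 3508 and 417 (8.42-fold higher in old cells), Chpf, a polymerising factor, 249 and 19.5 (at least 3.38-fold), and Ust, a 2-O-sulfotransferase, 289 and 105 (2.76-fold). Csgalnact1, which starts chondroitin chains, had 1600.5 and 3605, 2.25-fold higher in young cells.

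Other proteoglycan core proteins were 2-fold or more higher in old cells for 8 of 11 genes (72.7%, against 16.0% of all genes). Among them was Esm1 through the old array alone (982 and 8.46, at least 13.3-fold). Measured on both arrays were the granule proteoglycan Srgn (log2 ratio 6.11), Nrp1, which can carry a sugar chain (4.75), and the small matrix proteoglycans Dcn (4.69) and Bgn (4.04). Dcn is also in the fibroblast marker list. Col18a1, a heparan sulfate proteoglycan of basement membrane, was the 1 gene of the list on the young side, named here after its value was seen. It had 424 in old cells and 6616 in young cells, 15.6-fold, with its probe sets at -3.97 and -4.70 in log2 ratio.

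Hyaluronan receptors and turnover genes were on the old side for 4 of 8 and on the young side for 1. Stab2, which clears hyaluronan from blood in sinusoidal endothelium and is also in the liver sinusoidal marker list, had 24882 in old cells and 787 in young cells, 31.6-fold. Cd44, the main hyaluronan receptor, had 1622 and 38, under the floor in young cells, at least 22-fold, and Cemip2, a surface hyaluronidase, 10179 and 2173 (4.69-fold). Hmmr, a hyaluronan-binding protein that also serves the mitotic spindle, had 86.3 and 616, 7.13-fold higher in young cells.

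Genes of sialic acid supply and removal mostly lay within 2-fold. Of 9 measured, 1 was past 2-fold (11.1%, against 27.3% of all genes to either side). This was Nanp, a phosphatase of sialic acid synthesis, 2.23-fold higher in young cells with 476 and 1063. The others were within 2-fold, from -0.58 for Gne, the first enzyme of the route, to 0.67 for the sialidase Neu3, with the Golgi carrier Slc35a1 at 0.46.

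**Figure D4:**
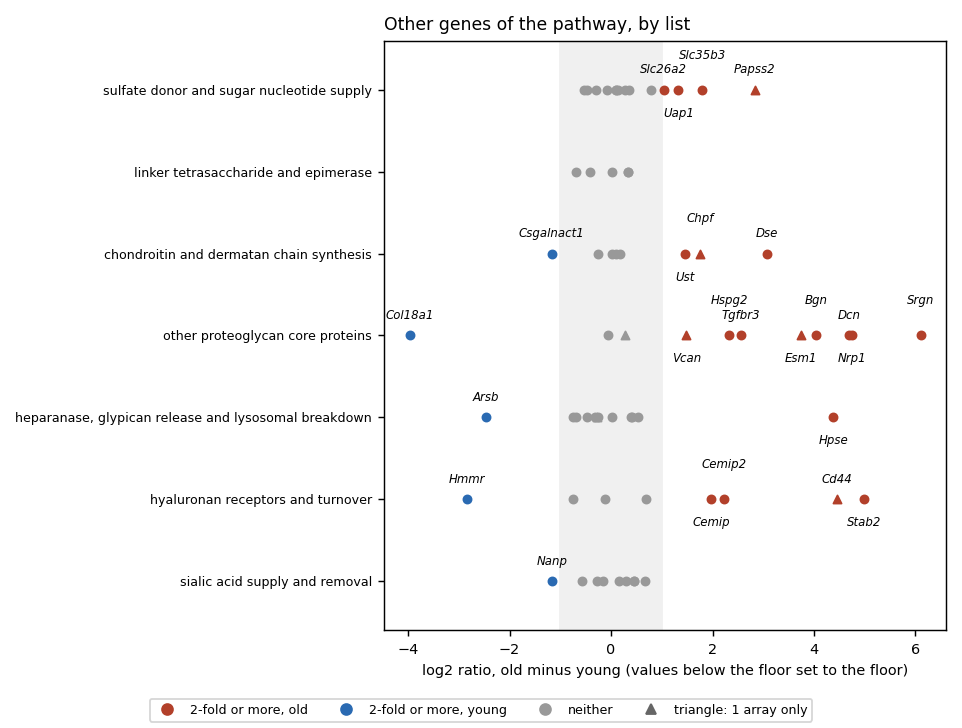
Log2 ratio of old minus young signal (horizontal axis) of the genes of 7 lists around the same pathways (vertical axis), 1 point per measured gene; red points are 2-fold or more higher in old cells, blue in young cells, grey neither, and triangles were over the floor on 1 array alone. Linker and sialic acid supply genes lie in or near the grey band, while 8 of 11 core protein genes lie to its right.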

How the data were processed

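Each array's deposited column holds 1 linear MAS5 intensity for every probe set; GCOS 1.4 and MAS5 are named in the submitters' processing notes. Trimmed by 2% at either end, the mean intensity was 500.003 in both columns. Of 45101 probe sets, 64 controls were left out, and 34945 of the rest had 1 gene symbol in the platform annotation of 2016, 932 several and 9160 none. All 73 members were matched by Entrez identifier to RefSeq genes.

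A single factor per array set the median log2 ratio of probe sets over both array medians to 0. It was -0.13 on the deposited intensities (factors 1.05 for old, 0.956 for young). The floor was the higher array median after scaling, 73.7. Each gene took the value of its brightest probe set (mean of the log2 signals). As each group has 1 array, the number of arrays limits the precision of every value, no test was run, and genes were counted at 2-fold. The procedure was tested on simulated data with changes set in genes well over the floor, all probe sets of a gene alike. That test covers neither bounds at the floor nor probe sets of opposite direction. By the rule for named genes, signals were given for every member at 2-fold or more, for the 2 highest and lowest of each role within 2-fold, and from each pathway list for up to 4 genes with the largest ratio. The remaining measured members, Papss1, Esm1, Col18a1, Clec4g, Alb, the lymphatic genes and the lung capillary genes were named beyond it. Members, lists and motifs were chosen with earlier results of these data known. Shared-sequence probe sets are those of the _x_at, _s_at and _a_at kinds. Sets of the _a_at kind share sequence among transcripts of the same gene, so leaving them out does not mark them as less specific. The software was Python 3.11.15 with pandas 2.3.3, numpy 2.4.6, statsmodels 0.14.6 and matplotlib 3.10.9.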

Additional observations from a re-analysis of the deposited data

How the results depend on the processing

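The 10 alternatives were the deposited scaling, equal trimmed means, quantile normalization, loess (span 0.4), floors at the 25th and 75th percentile, the mean over probe sets, no shared-sequence probe sets, an added offset of 0.5 of the floor, and genes above the floor on both arrays. The count of members on the old side ranged from 11 to 20 and stayed within 1.5 times of 16 in each. The count on the young side ranged from 5 to 14 and was beyond that range only with the higher floor of 489 signal units (5 genes), under which fewer values can be told from the floor. The median log2 ratio ranged from 0.18 to 0.50. Of 26 members at 2-fold or more, 17 kept their side in every alternative that gave a value (11 old, 6 young). Some alternatives could not change some of them, as the mean over probe sets for a gene with 1 probe set. The lower floor and the restriction to both arrays could take none of the 26 under 2-fold. The former can only widen a bound, and the latter only leaves genes out. Hs3st1, St3gal4, St3gal5 and St8sia4 gave no value without shared-sequence probe sets, and Has3 and St8sia1 none with the higher floor. Sulf2 reversed without shared-sequence probe sets (2.57) and was -0.98 over all its probe sets. Values under 2-fold were found for Hs6st1 (0.97 as deposited, 0.98 with equal trimmed means, at least 0.60 with the higher floor), St3gal6 (0.98 in both of those scalings, 0.75 over all probe sets) and Xylt2 (0.93 with quantile normalization, 0.89 with the offset). With the higher floor Chst11, St6galnac4, St6galnac6, St3gal1 and Sulf1 had bounds under 2-fold, which do not place them on either side. Past 2-fold in turn came Sdc2 (-1.04 under quantile normalization, -1.07 under equal trimmed means or the deposited scaling), Sdc4 (1.06 with loess, 1.26 over all probe sets), Chst14 (1.02 with loess) and Gpc6 (1.48 with the offset), and with the lower floor Gpc6, Gpc2 and St6galnac1. Over all probe sets Hs3st3b1 was at least 2.76. Gpc1 has 1 probe set, so its value of at least 4.33 could not change there. Being a bound, the value of Hs3st3b1 does not order it against Gpc1, Chst7 (4.18) or, in size, Chst1 (-4.32). No paired analysis was possible because each group has 1 array.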

Other observations

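The log2 ratio varied between probe sets of the same gene with an SD of 1.07 over the 15 members that had 2 or more probe sets over the floor in both samples, against 0.42 over 4514 genes of the whole array. Without Sulf2 the members' SD was 0.52.

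With the lower floor, 3 members that had bounds under 2-fold at the main floor passed 2-fold: Gpc6 (log2 ratio 2.27 toward the old array), St6galnac1 (1.42) and Gpc2 (-1.18). Gpc6 also passed it with the added offset (1.48). This glypican gene had 5 probe sets, and 1 of them was above the main floor.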
